A study of Mus musculus with 2 samples.

Results

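Bile duct epithelial nuclei were 90 of 10615 nuclei from regenerating mouse liver, chosen by the counts of 5 genes. A nucleus was taken when the unique molecular identifiers (UMIs, each a counted transcript molecule) of Pkhd1, Kcnma1, Glis3, Chrm3 and Kcnip4 summed to at least 4 with at least 2 of these genes detected, and when Nrg1, Tenm4 and Vmn2r3 together had at most 1 UMI. This gave 82 of 5167 nuclei of the Cox10-/- library, or 1.59% (exact Clopper-Pearson 95% interval 1.26 to 1.97), and 8 of 5448 nuclei of the wild-type library, or 0.147% (0.0634 to 0.289). The nuclei came from 2 livers, 1 Cox10-/- and 1 wild-type, each from a mouse with a floxed Cox10 allele that had received AAV8-Cre or AAV8-GFP, an adeno-associated virus, followed 4 weeks later by 70% hepatectomy, in which most of the liver mass is cut away. Cox10 makes an enzyme of heme A synthesis that cytochrome c oxidase, complex IV of the respiratory chain, needs, and Cre removes the floxed segment. The labels do not tie a virus to each animal, sex and age are not stated there, and the time of dissection is stated both as 4 days and as 4 weeks after surgery. AAV8 is known mainly to infect hepatocytes, and whether Cox10 was recombined in the bile duct cells was not tested.

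Bile ducts are lined by cholangiocytes, epithelial cells that take up and secrete solutes, water and bicarbonate as bile passes. Each carries a primary cilium, a sensory antenna whose defects cause polycystic liver disease, and the cells are known to develop from liver progenitors under Notch and SOX9. After injury or loss of liver mass, duct cells can proliferate and form the ductular reaction.

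Of the selecting genes, Pkhd1 encodes fibrocystin, a ciliary protein mutated in recessive polycystic kidney and liver disease, and Glis3 is a transcription factor with cystic phenotypes when lost. Kcnma1 is the pore of the BK potassium channel, Chrm3 a muscarinic acetylcholine receptor and Kcnip4 a potassium channel partner. All 5 are long genes, with a median span of 560.3 kb against 25.7 kb over the 13977 genes tested below, and no source used here says whether intron reads were counted. Pkhd1 lies on chromosome 1, 20057779 to 20618064, minus strand (mm10). As a description of what the selection took, Pkhd1 had 1283 UMIs in 80 of 82 Cox10-/- nuclei, Glis3 648 in 73, Kcnma1 514 in 61, Kcnip4 739 in 53 and Chrm3 150 in 44. In the 8 wild-type nuclei Pkhd1 had 129 UMIs in 8, Glis3 52 in 8, Kcnma1 49 in 8, Kcnip4 26 in 3 and Chrm3 5 in 2. The 5-gene sum had a median of 34.5 UMIs in Cox10-/- nuclei (4 to 178) and of 24 in wild-type nuclei (12 to 86). All 5 genes were detected together in 33 of 82 Cox10-/- nuclei and 1 of 8 wild-type nuclei, while 19 Cox10-/- nuclei had only 2 of them. At the threshold, 5 Cox10-/- nuclei had a sum of 4 and 5 others just outside had 3, whereas no wild-type nucleus was at 4 and 5 had 3. The biliary identity genes described below made up 0.265% of the UMIs of the 5 Cox10-/- nuclei at 4 and 0.314% of those at 3.

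**Figure D1:**
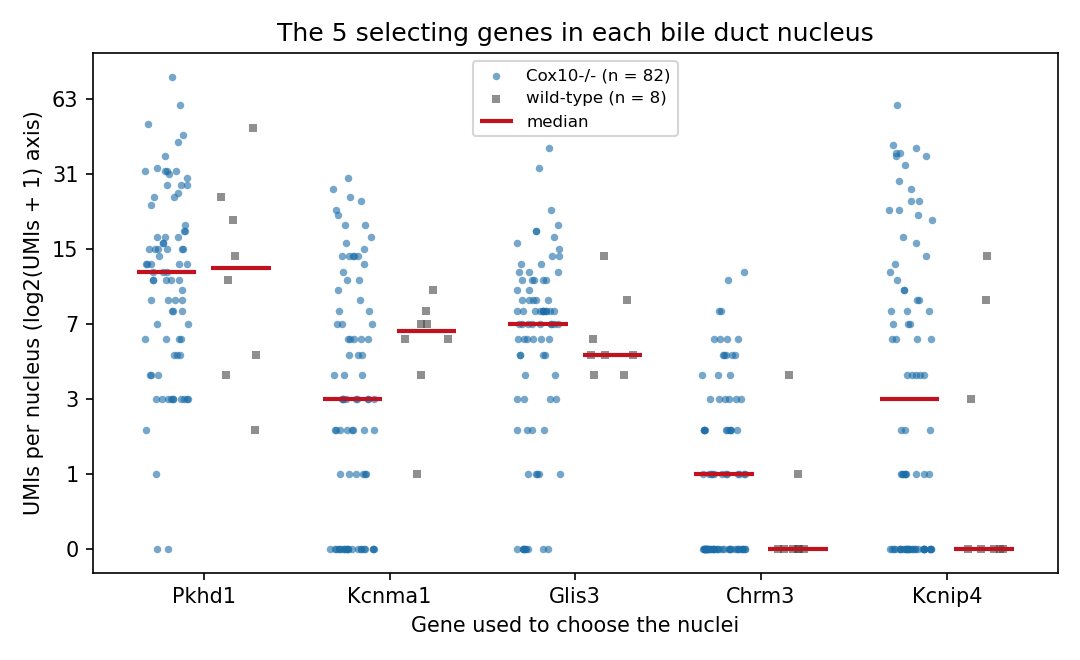
UMIs per nucleus of each of the 5 selecting genes on a log2(UMIs + 1) axis, 1 point per bile duct nucleus, Cox10-/- (n = 82) left of wild-type (n = 8), with medians as red bars. Pkhd1 has a median of 12 UMIs in Cox10-/- and 12.5 in wild-type nuclei, and the Cox10-/- nuclei at 0 for Kcnma1, Chrm3 or Kcnip4 were chosen through the other genes.

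Promoters of 3 genes that set the members apart are shown because they hold, in the 250 bases before the gene's start (RefSeq, GRCm38.p6), the letters of a motif known for duct regulators: ACAAAG, a SOX site, read on the other strand as CTTTGT, in Spp1 (chr5:104434861-104435110, plus strand) and Tspan8 (chr10:115817034-115817283, plus strand), and GGAATG, a TEAD site, in Ankrd1 (chr19:36119845-36120094, minus strand). Each sequence runs 5′ to 3′ on the gene's strand with the motif in capitals.
Spp1: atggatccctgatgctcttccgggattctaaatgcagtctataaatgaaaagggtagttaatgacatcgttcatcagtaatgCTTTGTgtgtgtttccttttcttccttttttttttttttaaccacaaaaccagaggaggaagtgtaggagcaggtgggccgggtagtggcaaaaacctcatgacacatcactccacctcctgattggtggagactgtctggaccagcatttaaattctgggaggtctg
Tspan8: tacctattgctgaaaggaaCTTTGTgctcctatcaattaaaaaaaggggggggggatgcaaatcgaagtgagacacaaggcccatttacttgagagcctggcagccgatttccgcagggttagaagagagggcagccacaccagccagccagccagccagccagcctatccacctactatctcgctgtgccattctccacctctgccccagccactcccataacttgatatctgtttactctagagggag
Ankrd1: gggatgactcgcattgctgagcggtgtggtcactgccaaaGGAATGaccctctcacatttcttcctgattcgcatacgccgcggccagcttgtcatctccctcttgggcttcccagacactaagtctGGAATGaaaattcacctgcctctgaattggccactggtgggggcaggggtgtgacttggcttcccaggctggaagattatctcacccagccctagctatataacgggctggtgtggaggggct

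Spp1 encodes osteopontin, Tspan8 a tetraspanin of epithelial surfaces and Ankrd1 an ankyrin repeat protein known as a YAP and TEAD target. The SOX letters lay 168 and 231 bases before the starts of Spp1 and Tspan8, and the TEAD letters 210 and 123 bases before that of Ankrd1. Over the 25 leading genes and the biliary identity and transcription factor lists, 41 of 67 genes had 64 promoters in the table, searched on both strands. ACAAAG was in 16 of the 64 (25%) and in 16.5% of all 32851 promoters, and GGAATG in 11 (17.2%) and 12.6%. Another motif was also searched, and its counts are not reported here. A match describes letters in this window and not a bound site, and genes with several promoters count more than once.

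The label was checked against 20 other biliary markers, among them Sox9, Epcam, Krt8, Spp1, Tspan8, Cdh1 and Bicc1. Their share of a nucleus's UMIs had a median of 1.14% in the 82 Cox10-/- bile duct nuclei (0.129 to 2.98) and of 0.130% in the other nuclei, and of 0.872% in the 8 wild-type ones (0.511 to 1.56) against 0.135% in the others. This share rested largely on the members Sorbs2 and Cp, with 1127 and 908 of 3529 UMIs in Cox10-/- bile duct nuclei. In the other Cox10-/- nuclei they had 7549 and 9581 of 23408, and in wild-type bile duct nuclei 94 and 69 of 245. Neither is confined to ducts: 63.2% and 82.1% of hepatocyte-marked Cox10-/- nuclei had a UMI. The Cox10-/- nuclei were a mixture. Kcnma1 was detected in 61 of them and not in 21. It is a selecting gene, so its low share in the other Cox10-/- nuclei (0.236% had a UMI) was partly set by the rule. The 61 had a median biliary share of 1.23% and 11.5 UMIs of Cps1, a hepatocyte urea cycle enzyme, per 10000, while the 21 had 0.522% and 33.4. Among the 21, 8 reached or passed the 64.8 Cps1 UMIs per 10000 that is the median of hepatocyte-marked nuclei, with a median biliary share of 0.256%, and among the 61 only 1 did. Those nuclei go against the label. Hepatocyte-marked nuclei are those outside the selection that met a hepatocyte marker rule and no other cell type's rule. That rule does not separate hepatocytes from bile duct nuclei, since 81 of 82 Cox10-/- and 7 of 8 wild-type bile duct nuclei also met it. More UMIs of the hepatocyte list than of the biliary list were found in 71 of 82 and 8 of 8. A biliary share at or above the upper quartile of other nuclei was found in 61 of the 61 and in 16 of the 21. Leading results are therefore given also for the 61 alone. This subset is not an independent check, since Kcnma1 helped choose the nuclei. It held all 8 nuclei with a doublet score in the top 4% of the library and all 6 that met the endothelial marker rule. All 8 wild-type bile duct nuclei had Kcnma1, none reached the wild-type hepatocyte-marked median of 76.5 Cps1 UMIs per 10000, and their values ran from 18.8 to 74.3.

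**Figure D2:**
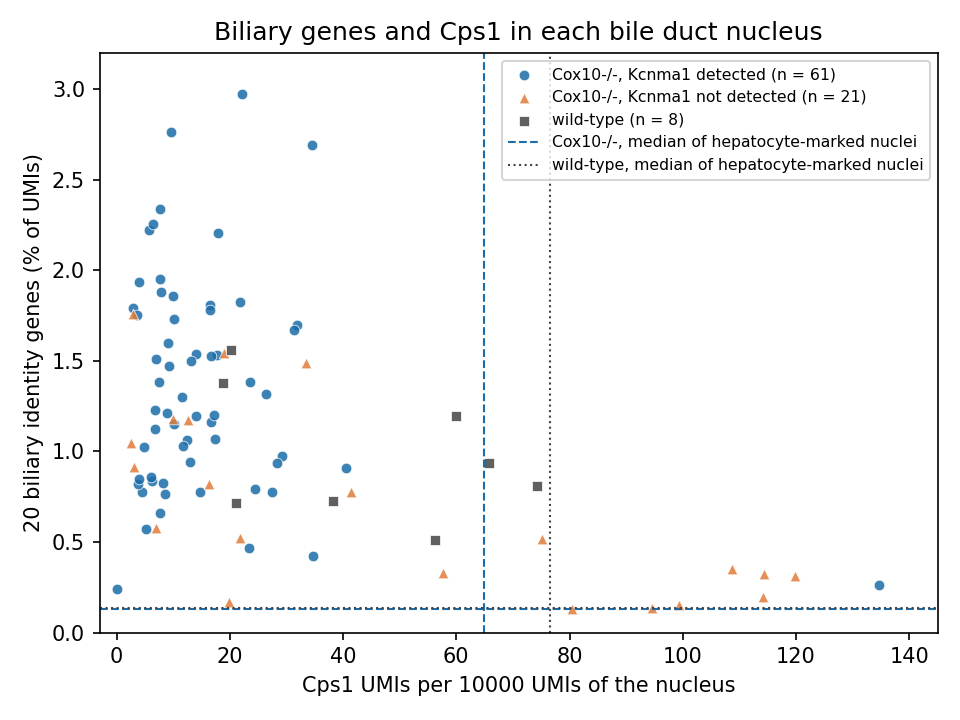
Share of each bile duct nucleus's UMIs in 20 biliary identity genes against its Cps1 UMIs per 10000, for Cox10-/- nuclei with (n = 61) and without (n = 21) Kcnma1 and wild-type nuclei (n = 8), with vertical lines at the medians of hepatocyte-marked nuclei and horizontal lines at the biliary medians of all other nuclei of each library. The 8 nuclei without Kcnma1 that lie at or beyond the Cox10-/- hepatocyte line have biliary shares of at most 0.517%.

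Bile duct nuclei were somewhat deeper than the rest: median UMIs were 3260.5 against 2278 in the Cox10-/- library and 3146 against 2853.5 in the wild-type library. The share of mitochondrially encoded UMIs had a median of 11.4% in bile duct and 8.88% in other Cox10-/- nuclei, and of 15.8% and 12.6% in wild-type ones. The libraries held 14476400 UMIs (Cox10-/-) and 17703804 UMIs (wild-type), and the summed bile duct nuclei 313578 and 28006, so wild-type values rest on few counts. Hepatocyte transcripts were not confined to hepatocyte-marked nuclei: Alb, serum albumin, had 11174 CPM (UMIs per 1000000 of the summed group) in Cox10-/- bile duct nuclei, 16710 in nuclei that carried endothelial markers and 18261 in hepatocyte-marked nuclei. No barcode of a bile duct nucleus was shared between the libraries, which had 7 barcodes in common. With 1 animal per genotype there is no test between groups, intervals cover counting error only, and nuclei of 1 liver are not replicates. Virus, dissection, perfusion and library cannot be told apart from genotype, which also holds for the share of bile duct nuclei.

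Against all other nuclei of the Cox10-/- library, bile duct nuclei had more of the genes of epithelial identity, cilia and cell junctions and fewer UMIs of endothelial, stellate and immune markers, as the counts of each list below show. Among 13977 genes that reached 20 UMIs in the combined sums, 651 (4.66%) were at least 2-fold higher with an interval wholly above 1.5-fold, and 453 (3.24%) were lower by the same rule. Since every gene in this contrast was counted in the nuclei that the selection sorted, all values are descriptions without a test. With only the 61 nuclei that had Kcnma1, 741 genes were higher and 542 lower, and 587 of the 651 and 301 of the 453 were counted again. In the smaller wild-type comparison 273 of 12452 genes were higher (2.19%) and 22 lower (0.177%), a split of 92.5% higher calls that became 49.6% (183 and 186 genes) with TMM factors, which lowered the median log2 ratio of all genes to -5.26 from -4.65, a median set by genes at 0 UMIs in the 8 nuclei. Of the genes higher in Cox10-/- bile duct nuclei, 127 were also higher in wild-type ones, that is 19.5% of the Cox10-/- genes and 46.5% of the wild-type genes.

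The ranking of leading genes left out selecting, predicted, mitochondrially encoded and sex chromosome genes. In it, apart from Zg16, described below, the gene with the highest lower end of its interval was Grhl2, a grainyhead factor of epithelial differentiation. Grhl2 had 156 CPM in Cox10-/- bile duct nuclei (49 UMIs in 31 of 82), against 0.353 CPM in the other nuclei, or 443-fold (95% interval 177 to 1423). In the wild-type library it had 3 UMIs in 1 of 8 bile duct nuclei and 3 in all other nuclei. The factor Ehf, of the epithelial ETS group, had 92.5 against 0.918 CPM, 101-fold (95% interval 50.8 to 211). Ankrd1 had 223 CPM in Cox10-/- bile duct nuclei (70 UMIs in 19 of 82), against 0.706 CPM in the other nuclei, 316-fold (95% interval 162 to 688). Ankrd1 was uneven, being found in 19 of the 82 nuclei, and it was absent from the 21 without Kcnma1. In the wild-type library Ankrd1 had 428 CPM in bile duct nuclei (12 UMIs in 4 of 8), against 0.226 CPM in the other nuclei.

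The other leading genes included matrix, adhesion and transport genes. Of extracellular matrix and surface genes, Lamc3, the laminin gamma 3 chain, had 185 against 0.777 CPM, 238-fold (95% interval 124 to 503), Adamts16, a matrix protease, 73.3 against 0.141 CPM, and Prom1, the apical membrane protein prominin 1 known from progenitor cells, 86.1 against 0.777 CPM. Of cell contact genes, Ctnna2 and Ctnnd2, both of the catenin family, had 268 against 1.62 CPM and 169 against 2.12 CPM, and Fermt1, which activates integrins, 76.5 against 0.565 CPM. Of transport genes, Cftr, the cAMP-gated chloride channel mutated in cystic fibrosis, had 67.0 against 0.424 CPM, 158-fold (95% interval 61.7 to 479), in 13 of 82 nuclei. Ppp2r2b, a regulatory subunit of protein phosphatase 2A, had 389 against 1.62 CPM, in 40 nuclei, and Chst9, a GalNAc sulfotransferase, 217 against 0.918 CPM. Of the 25 leading genes, 22 had UMIs in wild-type bile duct nuclei, where Ppp2r2b, Epb41l4a and Ctnna2 had 13, 11 and 11 UMIs in 4, 5 and 3 of the 8 nuclei. The 3 not found there were Zg16, Anxa13 and Cftr; a count of 0 in 28006 UMIs allows a level of up to 107 CPM (3 counts), above the 67.0 CPM of Cftr in Cox10-/- bile duct nuclei.

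**Figure D3:**
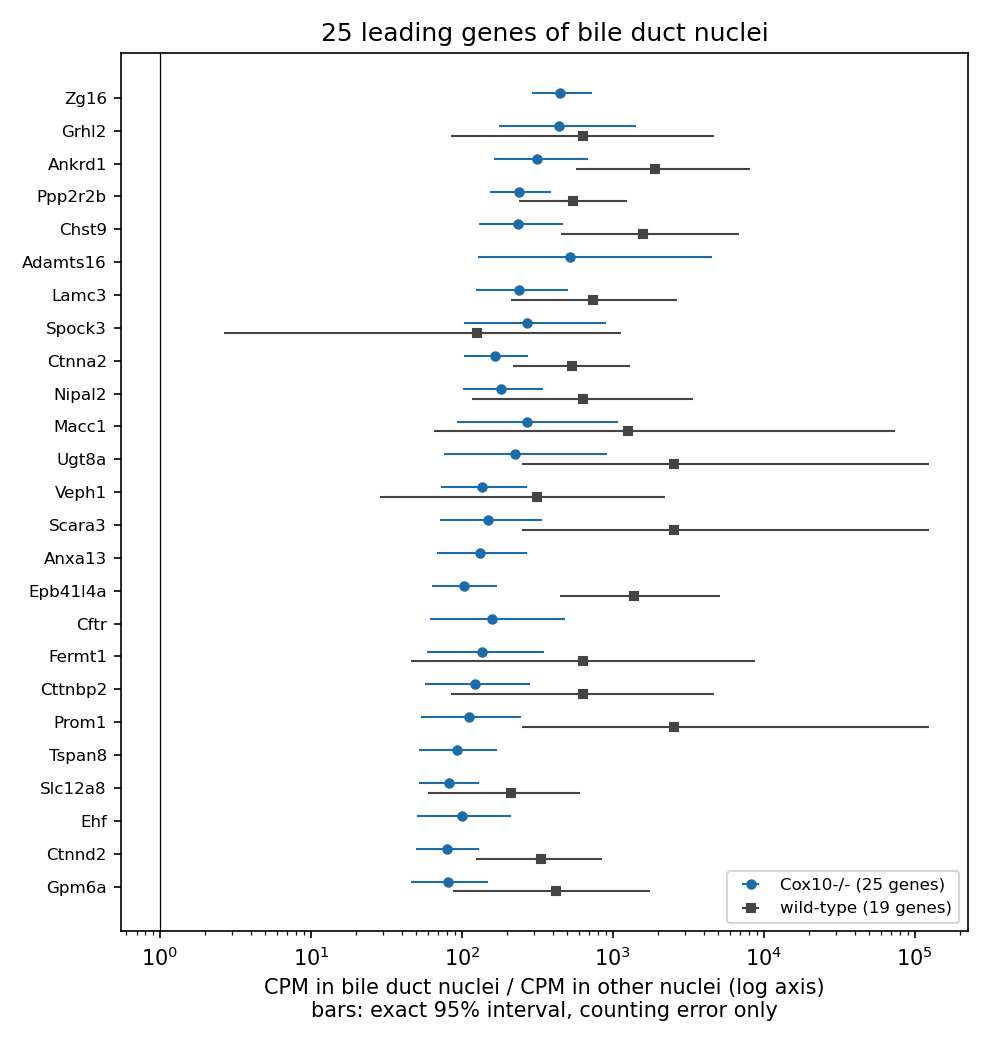
Ratio of CPM in bile duct nuclei to CPM in all other nuclei for the 25 leading genes of the Cox10-/- library, on a log axis, with exact 95% intervals for counting error, in the Cox10-/- (circles) and wild-type (squares, the 19 genes with UMIs in both sums) libraries. Every Cox10-/- interval lies above 45-fold, and the wild-type intervals are wide because the bile duct sum holds 28006 UMIs.

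Zg16 ranked above Grhl2 and is a zymogen granule protein of goblet cells. It had 219 UMIs in 5 of 82 Cox10-/- bile duct nuclei, but 215 of them came from a single nucleus with 4344 UMIs in all. That nucleus also held 106 UMIs of Fcgbp, 52 of Clca1, 38 of Tff3 and 34 of Muc2, genes of intestinal goblet cells and mucus, against 0 of Fcgbp, Clca1 and Muc2 and 1 of Tff3 in the other 81 Cox10-/- bile duct nuclei. It was taken through 12 UMIs of Chrm3 and 5 of Pkhd1, had 6 of Cdh1 and 1 of Epcam, and had none of Bicc1, Spp1 or Kcnma1. Among the other Cox10-/- nuclei no nucleus had more than 1 UMI of Muc2. Without it the counts were 640 genes higher and 452 lower. The mucus genes of this sum were thus those of 1 nucleus.

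Of the 20 biliary identity genes, 15 had enough UMIs and 13 were higher, none lower, with a median log2 ratio of 2.86 against -0.16 over all genes tested; with the 61 nuclei the count was again 13 and the median 3.17. The markers overlap with what earlier results of these data had shown, so they are a check of the label and not independent of it. Spp1, a secreted phosphoprotein, had 1636 CPM (513 UMIs in 64 of 82 nuclei), against 35.2 CPM in other Cox10-/- nuclei, 46.5-fold (95% interval 41.0 to 52.7), and 893 CPM in wild-type bile duct nuclei (25 UMIs in 8 of 8), against 1.70 CPM in the other wild-type nuclei. Bicc1 had 1795 CPM in Cox10-/- bile duct nuclei (563 UMIs in 70 of 82), against 111 CPM in the other nuclei, 16.2-fold (95% interval 14.6 to 17.8); this RNA-binding protein restrains cyst formation. Bicc1 was in all 8 wild-type bile duct nuclei with 1178 against 5.32 CPM. Stellate-marked nuclei of the Cox10-/- library also had 463 CPM of Bicc1, 302 of Angpt1, 202 of the selecting gene Glis3 and 162 of Thsd4. These nuclei are part of the "other nuclei" in the ratios, whereas wild-type other nuclei were nearly all hepatocyte-marked (5207 of 5440). Epcam, the classical epithelial adhesion marker, was sparse: 41.5 against 1.20 CPM, 13 UMIs in 9 nuclei, and 1 UMI in wild-type bile duct nuclei. Sox9 likewise had 12 UMIs in 10 Cox10-/- nuclei (38.3 against 5.22 CPM) and none in wild-type ones. Tspan8, a tetraspanin, had 124 against 1.34 CPM and Cdh1, E-cadherin, 303 against 31.8 CPM. Some broadly expressed members were also higher, Sorbs2 at 3594 against 533 CPM and Cp, ceruloplasmin, at 2896 against 676 CPM, with 3356 against 731 CPM and 2464 against 559 CPM in the wild-type library. Krt18 and Dsc2 were the tested members not counted, at 124 against 72.4 CPM and 73.3 against 32.8 CPM.

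Of 19 transcription factors tested, 9 were higher and 2 lower (median 1.21). Onecut1, a factor of duct development, had 223 against 19.3 CPM, and its paralog Onecut2 794 against 165 CPM. In the wild-type library these did not stand out, at 214 against 229 CPM and 749.8 against 414 CPM. Rfx3, a driver of cilium genes, had 233 against 89.5 CPM. Zeb2 and Zeb1, repressors of epithelial genes, were lower at 185 against 1227 CPM and 236 against 530.4 CPM. Glis2, related to Glis3, was higher on 7 UMIs, 22.3 against 4.02 CPM.

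Counted by the ratio alone at 1.5-fold, with no interval, 20.5% of all genes tested were higher and 33.5% lower in Cox10-/- bile duct nuclei. By that count 15 of 15 identity genes were higher, 13 of 19 transcription factors with 3 lower, 20 of 28 cilium genes with 1 lower, 21 of 29 junction genes with 2 lower, 11 of 17 bicarbonate and water transport genes with 2 lower and 10 of 22 Hippo genes with 1 lower. Of the Notch genes 4 of 17 were higher and 6 lower, and of the Wnt genes 4 of 18 were higher and 9 lower, of which 8 had 0 UMIs in bile duct nuclei. Endothelial and stellate markers had none higher, with 14 of 15 and 12 of 15 lower.

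**Figure D4:**
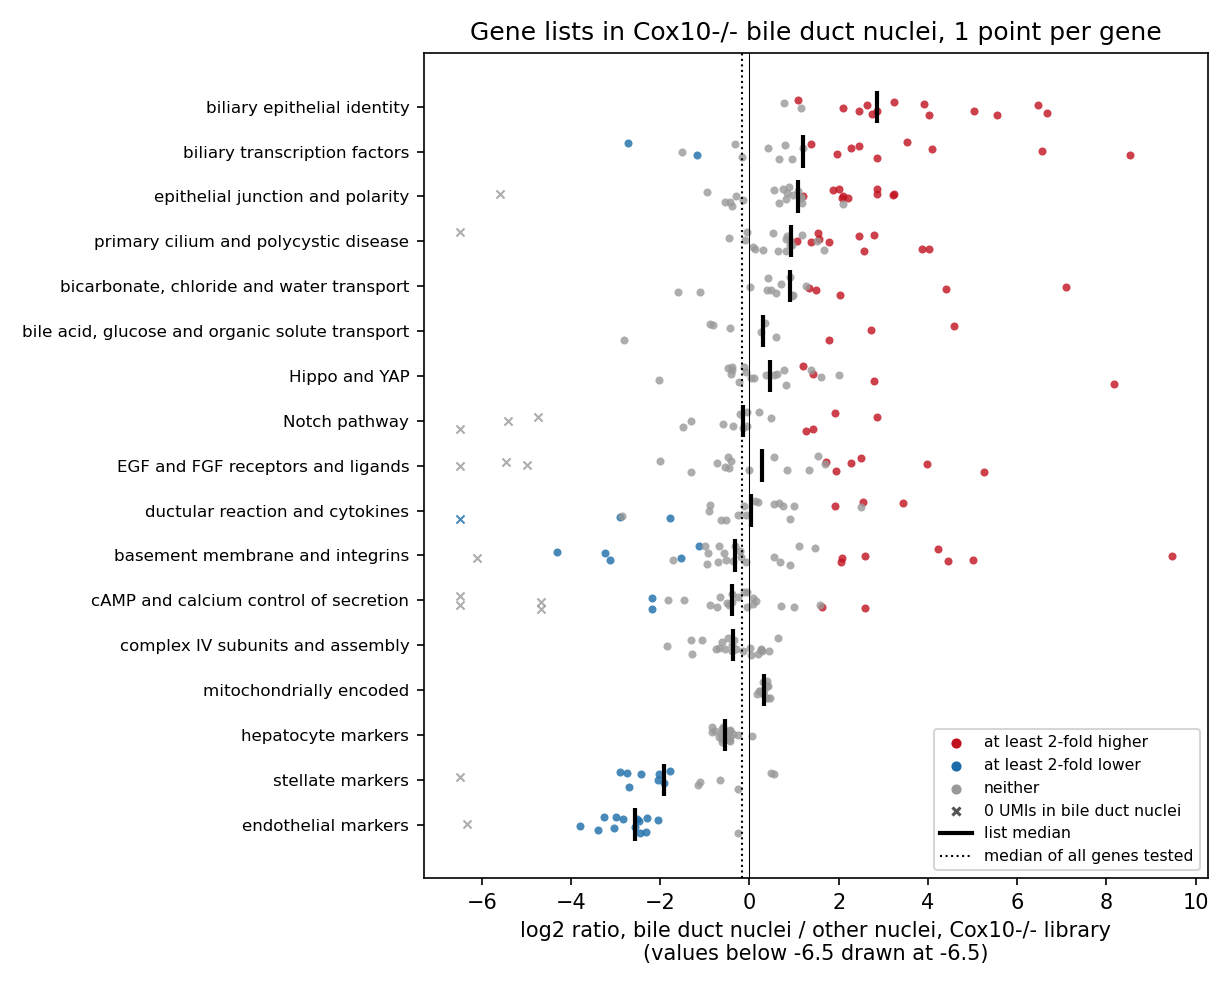
Log2 ratio of each tested gene of 17 lists, bile duct against other nuclei of the Cox10-/- library, coloured by whether it was at least 2-fold higher, lower or neither, with list medians as bars and crosses for genes with 0 UMIs in bile duct nuclei. The biliary identity median stands at 2.86 and the endothelial median at -2.56, against -0.16 for all genes.

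Of the cilium and polycystic disease genes, 10 of 28 tested were higher and none lower, with a median of 0.93; with the 61 nuclei 13 were higher. Dcdc2a, a ciliary protein mutated in neonatal sclerosing cholangitis in humans, had 446 against 30.7 CPM, 14.5-fold (95% interval 11.9 to 17.6), and 464 against 2.15 CPM in the wild-type library. Stellate-marked nuclei of the Cox10-/- library also carried Dcdc2a, at 147 CPM in 27.7% of them. Intraflagellar transport genes followed at lower counts: Ift122 had 38.3 against 11.01 CPM and Ift88 57.4 against 21.9 CPM, while Ift140 had 28.7 against 18.5 CPM and was not counted. Tulp3, an adaptor for ciliary cargo, had 51.0 against 17.5 CPM, and Rpgrip1l, of the transition zone, 47.8 against 16.2 CPM. Pkd2 and Pkd1, the polycystins, were not counted, at 137 against 77.2 CPM and 35.1 against 37.8 CPM.

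Secretion genes divided. Of the bicarbonate, chloride and water transport genes, 5 of 17 were higher and none lower (median 0.92). Beside Cftr these included Kcnn4, a calcium-gated potassium channel, at 22.3 against 0.989 CPM, Car2, carbonic anhydrase 2, at 28.7 against 6.99 CPM, and Slc12a2, the sodium potassium chloride cotransporter, at 51.0 against 18.2 CPM. Slc4a2, the anion exchanger that secretes bicarbonate, had 44.6 against 18.5 CPM from 14 UMIs and its interval (1.30 to 4.12) reached under 1.5-fold. Of the solute carriers, 3 of 10 were higher (median 0.30): Slc5a1, the glucose transporter SGLT1, at 89.3 against 3.67 CPM, Abcb1a, a drug efflux pump, at 60.6 against 9.11 CPM, and Slco3a1, an organic anion carrier, at 462 against 135 CPM. Slc10a2, the apical bile acid transporter of cholangiocytes, had 76.5 against 50.7 CPM and was not counted. Of the cAMP and calcium genes 2 of 27 were higher, the adenylyl cyclases Adcy2 (147 against 24.3 CPM) and Adcy6 (54.2 against 17.6 CPM), and 2 lower, Vipr1, a receptor for vasoactive intestinal peptide, and Pde3a, a phosphodiesterase, with a median of -0.40 that became -0.12 when the 4 members at 0 were set to the floor of 3 UMIs (0.10 for all genes on that basis).

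The epithelial junction and polarity list had 10 of 29 tested members higher and none lower (median 1.10), and 11 with the 61 nuclei. Magi1, a scaffold of tight junctions, had 3846 CPM in 81 of 82 nuclei, against 950.4, 4.05-fold (95% interval 3.81 to 4.29), and 4785 CPM in wild-type bile duct nuclei (134 UMIs in 8 of 8), against 1300.5 CPM in the other wild-type nuclei, 3.68-fold (95% interval 3.08 to 4.36). Dsg2, a desmosomal cadherin, had 446 against 61.4 CPM, and 321 against 30.3 CPM in the wild-type library. Patj, a member of the Crumbs polarity complex, had 325 against 45.1 CPM, Cgn, cingulin, 102 against 10.9 CPM, and Ocln, occludin, 175 against 41.0 CPM. Tjp1 and Ctnna1, which other liver cells also use, had 124 against 181 CPM and 246 against 271 CPM. Basement membrane and integrin genes went both ways, 7 of 31 higher and 5 lower (median -0.33). The higher ones included Col4a6 and Col4a5, type IV collagen chains of epithelia, at 98.9 against 0.0706 CPM and 198 against 6.07 CPM, and the integrins Itga2 (82.9 against 3.74 CPM), Itgb8 (163 against 8.61 CPM), Itga6 (47.8 against 11.5 CPM) and Itga3 (25.5 against 4.17 CPM), with Agrn, the proteoglycan agrin, at 47.8 against 11.2 CPM. Lower ones included Itga1 (175 against 382 CPM), Itga9 (149.9 against 433 CPM) and Itgb3 (3.19 against 64.6 CPM).

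Signalling pathways differed in few members each. In the Notch list 4 of 17 were higher and none lower: the ligand Jag1 at 51.0 against 18.9 CPM, the receptor Notch2 at 195 against 80.9 CPM, the target Hes1 at 179 against 47.2 CPM, and Sox9, with a list median of -0.13 (0.22 with 3 members at 0 set to the floor). In the Hippo and YAP list 4 of 22 were higher (median 0.46): the upstream scaffold Wwc1 at 561 against 81.0 CPM, the DNA-binding partner Tead1 at 427 against 185 CPM, and the targets Ccn1 at 144 against 53.8 CPM and Ankrd1. Yap1 itself had 147 against 96.1 CPM, and Ccn2, a common YAP target, 25.5 against 26.8 CPM; neither was counted. In the EGF and FGF list 6 of 22 were higher (median 0.28, or 1.08 with 3 members at 0 set to the floor). Erbb4, a receptor of neuregulins, had 2943 CPM in 75 of 82 nuclei against 187, 15.8-fold (95% interval 14.6 to 17.0), and 3999 CPM in wild-type bile duct nuclei (112 UMIs in 7 of 8), against 866 CPM in the other wild-type nuclei, 4.62-fold (95% interval 3.80 to 5.56). Egfr had 1119 against 1538 CPM, and the receptors Fgfr3 and Fgfr1 had 70.2 against 12.3 CPM and 166 against 50.3 CPM. Fgf13, an intracellular member of the FGF family, had 233 against 6.002 CPM in 18 nuclei. Of 18 Wnt genes 1 was higher, the ligand Wnt4 (31.9 against 8.97 CPM), and 1 lower, the receptor Lgr5, at 0 of 313578 UMIs against 19.1 CPM; 8 of the tested members had 0 UMIs, so their median of -0.80 became 0.88 at the floor.

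Of 22 ductular reaction and cytokine genes, 3 were higher and 3 lower (median 0.03). Pdgfd, a platelet-derived growth factor, had 1467 CPM in 56 of 82 nuclei against 135, 10.8-fold (95% interval 9.76 to 12.0), and 1499.7 CPM in wild-type bile duct nuclei (42 UMIs in 8 of 8), against 4.92 CPM in the other wild-type nuclei, 305-fold (95% interval 206 to 445). Endothelial-marked nuclei of the Cox10-/- library also carried it, at 419 CPM. The lower members were Hgf, hepatocyte growth factor, at 60.6 against 453 CPM, Cd44, a hyaluronan receptor, at 35.1 against 122 CPM, and Lgals3, galectin 3, at 0 of 313578 UMIs against 23.7 CPM. Mmp7, a protease of injured ducts, had 13 UMIs in 10 nuclei against 3 in all others and was under the count minimum. None of 25 proliferation genes was higher or lower (81 UMIs in all, median -0.62, or 0.33 with 8 members at 0 set to the floor), and Pola1, a DNA polymerase subunit, had 121 against 61.0 CPM. None of 22 complex IV genes was counted (median -0.37), nor any of 13 mitochondrially encoded genes (median 0.33), of 16 handling genes such as Fos and Jun (median -0.04, or 0.03 with 1 member at 0 set to the floor) or of 20 ribosomal protein genes (median -0.32). Of 22 integrated stress response genes 1 was higher, Vldlr, from 6 UMIs (median -0.49, or -0.35 with 1 member at the floor). Cox10 had 9 UMIs in 9 Cox10-/- bile duct nuclei, 28.7 CPM, against 35.2 in the others, and none in the wild-type ones, against 34.6. The count is taken at the 3′ end and does not check the deletion.

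Endothelial, stellate, myeloid and lymphocyte markers were lower in sum, and most members were counted as lower only in the endothelial and stellate lists. Of 15 endothelial markers, 13 were lower and none higher (median -2.56, or -2.52 with 1 member at 0 set to the floor), of 15 stellate markers 8 were lower (-1.91, or -1.79), of 14 myeloid markers 5 (-2.58, or -1.62 with 4 at the floor), and of 14 lymphocyte markers 3, with 11 of the 14 at 0 UMIs (-5.31, or 0.63 at the floor). Summed, the endothelial list had 772 CPM in Cox10-/- bile duct nuclei against 3846 in the others, the stellate list 2755 against 7530, the myeloid list 233 against 764 and the lymphocyte list 35.1 against 445. Among the lowest genes were Fyb and Dock2, immune adaptors, at 3.19 against 209 CPM and 6.38 against 199.9 CPM, and Calcrl, an adrenomedullin receptor of endothelium, at 28.7 against 306 CPM. Residual counts were concentrated. The endothelial scavenger receptor Stab2 had 52 UMIs in 6 nuclei, and 49 of them were in the 8 bile duct nuclei with a doublet score in the top 4% of the library. Sntg1, a syntrophin, had 99 UMIs in 6 nuclei, all 99 in the 7 nuclei that also met the stellate marker rule. Without the 8 high-scoring nuclei the endothelial median was -4.40, and 587 of the 651 higher genes and 420 of the 453 lower genes were counted. Hepatocyte markers were not counted in either direction (0 of 20, median -0.54), and 4 of 20 were lower with the 61 nuclei. Gpm6a, a neuronal and mesothelial membrane glycoprotein, was high at 115 against 1.41 CPM in 21 nuclei, while the mesothelial list had 8 of 10 members at 0. Of the smooth muscle and portal fibroblast list 1 of 7 tested was higher, the matrix protein Fbln2, from 5 UMIs, and 8 of 14 were at 0 (median -0.58, or -0.36 at the floor). The neuron and Schwann list had none of 6 tested members counted and 8 of 12 at 0 (median 0.15, or 1.09 at the floor), and of the pancreatic and enteroendocrine list no member had enough UMIs to be tested.

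Within the Cox10-/- library the nuclei with and without Kcnma1 also differed in genes other than the selecting ones. Kcnma1 helped choose the nuclei and the split was made after the data were seen, so the values are descriptions without a test. The 21 without it include 8 nuclei with Cps1 at or above the hepatocyte-marked median, and the nucleus with mucus genes. The part of these nuclei in the differences was not tested. Of 3213 genes with enough UMIs over both sums, 192 (5.98%) were higher and 267 (8.31%) lower in the 61 with Kcnma1 than in the 21 without. Thsd4, a matrix-associated thrombospondin domain protein, had 1137 against 9.67 CPM, Pdgfd 2118 against 145.01, Dcdc2a 638 against 58.0 and Fgf12 666 against 38.7. Kcnip4, also a selecting gene, had 3479 against 77.3 CPM. Among the 10 genes lowest in the 61 by interval were the hepatocyte genes G6pc, Ghr and Slc7a2. G6pc, glucose 6-phosphatase, had 224 against 1663 CPM, Ghr, the growth hormone receptor, 904 against 5046, and Slc7a2, an arginine transporter, 681 against 4031. First in that ranking was Zg16, mostly from the nucleus with mucus genes, which had no Kcnma1. Of 19 hepatocyte markers tested, 5 were lower and none higher (median -0.19, against -0.02 over all genes tested). Spp1 was close in both, at 1766 and 1373 CPM. The endothelial genes Stab2 and Ptprb also ranked among the higher ones, with 49 of 52 and 34 of 49 of their UMIs in the 8 nuclei of high doublet score. The 61 were shallower (median 3041 against 3922 UMIs) and had more mitochondrially encoded UMIs (median 11.7% against 6.09%), values whose part in these differences was not tested.

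In the Cox10-/- library 30 nuclei met the 5-gene sum but had more than 1 UMI over Nrg1, Tenm4 and Vmn2r3, and were left out. Their biliary share had a median of 0.902%, against 1.14% in the bile duct nuclei. Of 4562 genes tested between them, 174 (3.81%) were higher in the bile duct nuclei and 185 (4.06%) lower; with TMM factors, which raised the median log2 ratio of all genes to 0.09 from -0.07, the counts were 230 and 139, or 62.3% higher calls in place of 48.5%. Among the 10 genes lowest in the bile duct nuclei by interval were Slc7a11, Gclc, Pdk4 and Areg. Slc7a11, the cystine transporter, had 3.19 CPM (1 UMI) in bile duct nuclei against 458 CPM (83 UMIs in 10 of 30) in the left-out nuclei, 144-fold lower (95% interval 25.1 to 5744). Gclc, which starts glutathione synthesis, had 182 against 2358 CPM, 12.97-fold lower (95% interval 9.82 to 17.4), in 21 of the 30. Pdk4, a brake on pyruvate dehydrogenase, had 9.57 against 668, and Areg, amphiregulin, 6.38 against 536. Higher in the bile duct nuclei were Map2, a microtubule protein, with 59 UMIs in 35 nuclei against 0 of 181089 UMIs, at least 11.4-fold against a floor of 3 UMIs over the left-out group, Gna14, a G protein alpha subunit, at 290.2 against 16.6, and Grhl2, at 156 against 11.04. Thsd4 and Rbms3 had 765 and 928 against 149 and 138 CPM. Sntg1, Nrxn3 and Ntm also ranked among the higher genes, but 99 of 99, 39 of 39 and 50 of 57 of their UMIs were in the 7 nuclei with stellate markers. Bile duct nuclei were shallower than the left-out ones, with a median of 3260.5 against 6210.5 UMIs, and had more mitochondrially encoded UMIs (median 11.4% against 5.30%), and the part of these in the differences was not tested.

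In the wild-type library alone the leading genes were Thsd4, Angpt1, Spp1, Pdgfd and Bicc1. By list, 5 of 10 identity genes tested, 4 of 24 cilium genes, 3 of 13 bicarbonate and water transport genes, 3 of 17 Hippo genes and 4 of 23 basement membrane genes were higher and none lower, and 2 of 20 hepatocyte markers and 1 of 15 integrated stress response genes were lower. The bile acid, Notch and junction lists had 2 members higher each, and the transcription factor, ductular reaction and EGF and FGF lists 1 each. Stellate markers also had 2 of 11 higher, Ank3 and Prkg1, with 36 UMIs over the list in bile duct nuclei against 4128 in the others (1285 against 234 CPM, 5.50-fold, 95% interval 3.85 to 7.63), while 9 of the 11 had 0 UMIs in bile duct nuclei. Of 9 myeloid markers, 1 was higher, Csf1r on 2 UMIs, and the other 8 had 0 UMIs. Thsd4 had 1178 CPM in all 8 bile duct nuclei against 0.962 in the others, and Angpt1, angiopoietin 1, 928 in 7 of 8 against 1.02. In the Cox10-/- library the same genes had 765 against 36.4 CPM and 702 against 60.2 CPM. The lower genes were hepatocyte ones, Fbp1, a gluconeogenic phosphatase, at 71.4 against 604 CPM, Cdo1, cysteine dioxygenase, at 179 against 784 CPM, Tat, tyrosine aminotransferase, at 607 against 1743 CPM, and Ghr at 2928 against 6547 CPM. Rbms3 and Ank3, at 928 against 12.4 CPM and 857 against 101 CPM in the wild-type library, had 928 against 733 CPM and 1327 against 1586 CPM in the Cox10-/- library, where 732 nuclei carried stellate markers, against 34 in the wild-type one.

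Between the genotypes, Bicc1, Sorbs2, Pdgfd and Magi1, which mark the bile duct nuclei of both libraries, did not pass the 2-fold rule, with or without TMM factors. Nor did any of the 11 biliary identity genes tested without TMM factors. By the ratio alone, 7 of the 11 were at least 1.5-fold higher in Cox10-/- bile duct nuclei and 1 lower (median 0.87). Of all genes tested, 35.4% were that much higher and 20.2% that much lower (median 0.15). With genes at 0 UMIs in wild-type bile duct nuclei set to the floor (1 of the 11), these medians were 0.61 and -0.02. Summed, the list was 1.29-fold higher (95% interval 1.13 to 1.47). Cox10-/- and wild-type bile duct nuclei had 1795 and 1178 CPM of Bicc1, 3594 and 3356 of Sorbs2, 1467 and 1499.7 of Pdgfd, and 3846 and 4785 of Magi1. The ratio was 1.52 for Bicc1 (95% interval 1.07 to 2.24), 1.07 for Sorbs2 (0.867 to 1.34) and 0.978 for Pdgfd (0.712 to 1.38), and of these the Bicc1 interval lay wholly above 1, but with at most 10% mitochondrially encoded UMIs the log2 ratio of Bicc1 was -0.04, in place of 0.61. With TMM factors the ratios were 2.07 for Bicc1, 1.46 for Sorbs2 and 1.33 for Pdgfd, and that of Magi1 was 1.09, in place of 0.804, so the direction of Pdgfd and Magi1 depended on the scaling. The Magi1 interval lay wholly below 1 without TMM factors, and with them it ran from 0.913 to 1.32. Of 3411 genes tested, 23 were higher in Cox10-/- bile duct nuclei (0.674%) and 30 lower (0.88%), so 43.4% of calls were higher; TMM and DESeq2 factors gave 70 and 12 genes, or 85.4% higher calls, and raised the median log2 ratio of all genes to 0.59 from 0.15.

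The 10 leading higher genes included Hpx, C3, Hp and Mup20, secreted proteins of hepatocytes, and all 10 were also counted with TMM factors. Hpx, hemopexin, had 918 CPM in Cox10-/- bile duct nuclei (288 UMIs in 79 of 82), against 143 CPM in wild-type ones (4 UMIs in 2 of 8), 6.43-fold (95% interval 2.48 to 23.8). C3, the complement component, had 1024 against 214, Hp, haptoglobin, 969 against 249.9, and Mup20, a major urinary protein, 2478 against 928. H2-D1, a class I histocompatibility gene, had 651 against 107. Hpx and H2-D1 were also higher in the other nuclei of the Cox10-/- library, where Hpx had 1388 CPM against 389 in the wild-type ones (3.57-fold) and H2-D1 637 against 75.4. These other nuclei differed in cell makeup, with 1963 of 5085 hepatocyte-marked in the Cox10-/- library and 5207 of 5440 in the wild-type one. The part of makeup in the ratios between other nuclei was not tested. Of the 23 genes, 20 were also at least 2-fold higher between the other nuclei of the libraries, where 4099 of 15040 genes were (27.3%), and among the 3 that were not were Fcgbp and Egr1, named after their values were seen. Egr1, an immediate early gene, had 437 against 71.4 CPM (137 UMIs in 57 of 82 nuclei, against 2 in 2 of 8), 6.12-fold (95% interval 1.66 to 51.0), with 343 and 328 CPM in the other nuclei. The 16 handling genes, of which Egr1 is 1, summed to 1910 against 499.9 CPM (599 UMIs, against 14), 3.82-fold (95% interval 2.26 to 7.03). Of the 9 tested, Egr1 alone passed the 2-fold rule, and all 9 were at least 1.5-fold higher by the ratio alone, as were 35.4% of all genes tested, of which 20.2% were that much lower, and the part of handling in these differences was not tested. Other lists were also higher in sum, among them complex IV genes, 3.19-fold (95% interval 1.71 to 6.71, 357 UMIs against 10), and ribosomal protein genes, 2.21-fold (1.43 to 3.60). The EGF and FGF, Wnt and mitochondrially encoded lists had ratios of 0.757, 0.691 and 0.802, with intervals wholly below 1. Fcgbp and the first-ranked Zg16 came from the single nucleus with mucus genes. Trp53inp1, a p53-induced gene, had 293 CPM against 0 UMIs in wild-type bile duct nuclei, at least 2.74-fold against a floor of 3 UMIs over the group.

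Of the 10 leading genes counted as lower in Cox10-/- bile duct nuclei, 2 were also counted with TMM factors, Acsl1 and Ttc39c, and the other 8 stayed below 1 without passing the rule. Acsl1, which activates fatty acids, had 204 against 964 CPM, 4.72-fold lower (95% interval 2.90 to 7.51), and Abcd3, a peroxisomal fatty acid transporter, 299.8 against 857. Adk, adenosine kinase, had 3109 against 6249, and Egfr 1119 against 2428. Of the 30, 25 were also lower between the other nuclei, where 1043 of 15040 genes were (6.93%), and the 5 that were not, named after their values were seen, were Upp2, Supt20, Zfp398, Kif2a and Wdr7. In the other nuclei, which differed in cell makeup as given above, Acsl1 had 384 CPM in the Cox10-/- and 1488 CPM in the wild-type library. With the 61 nuclei that had Kcnma1, 66 genes were lower and 28 higher. Albumin UMIs were present in all bile duct nuclei of both libraries, at 11174 CPM in Cox10-/- and 8177 CPM in wild-type ones, and the part of hepatocyte RNA in these differences was not tested.

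**Figure D5:**
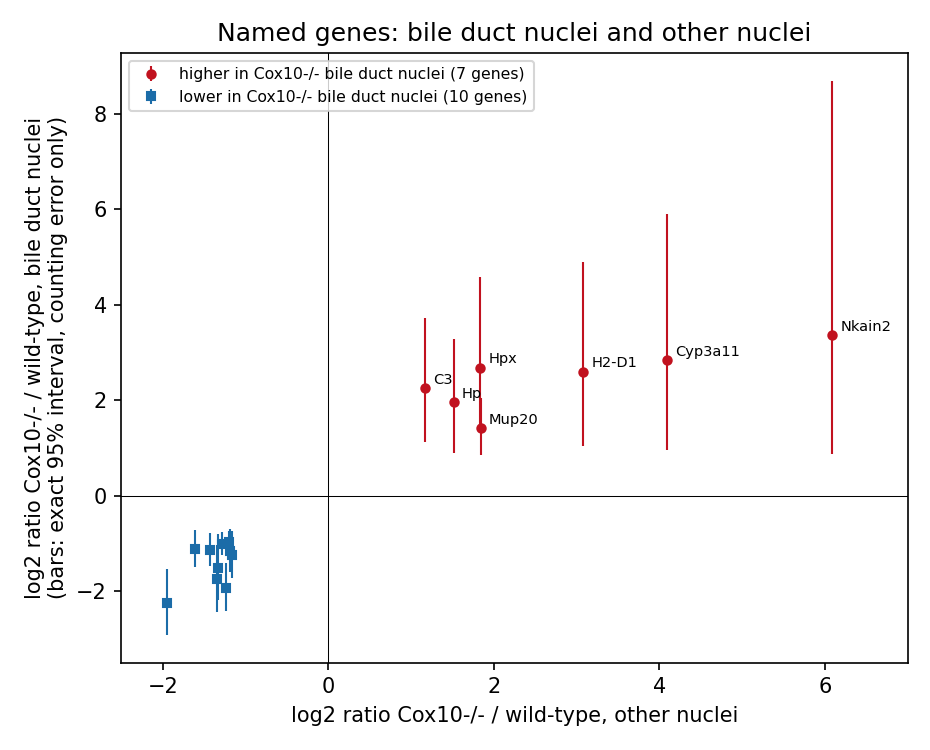
Log2 ratio of Cox10-/- to wild-type CPM in bile duct nuclei (vertical, with exact 95% intervals for counting error) against the same ratio in the other nuclei of the libraries (horizontal), for the named genes with UMIs in both bile duct sums, 7 higher (circles) and 10 lower (squares). Each of these genes lies on the same side of 0 in both kinds of nuclei. The other nuclei differ in cell makeup between the libraries, and the part of this in the horizontal values was not tested.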

How the data were processed

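Single-nucleus RNA was measured with the 10x Chromium 3′ v3.1 chemistry in 1 Cox10-/- and 1 wild-type liver, per the labels' protocols. The deposited values are UMI counts per gene and nucleus; Cell Ranger 7.0 and mm10 are named in the submitters' processing notes. The deposited tables held 32286 genes, 601 to 3999 genes per nucleus and at most 19.99% mitochondrially encoded UMIs, and 31424 genes matched GENCODE vM21, which gave the coordinates. Counts were summed over the bile duct nuclei and over each group they were set against, and the ratio of CPM was given an exact conditional binomial 95% interval, checked on simulated data. A gene with at least 20 UMIs over both sums was counted as higher or lower at 2-fold or more with the whole interval beyond 1.5-fold; log2 ratios used a prior of 0.5 UMIs. No test between groups was possible with 1 library each, and intervals cover counting error only.

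Leading genes were the 25 with the highest lower end of the interval and the 10 with the lowest upper end (10 and 10 between genotypes), with at least 20 UMIs in at least 3 nuclei of the higher group, leaving out the selecting, predicted, mitochondrially encoded and sex chromosome genes. Other genes are members of 30 lists or were named after their values were seen. The bile duct nuclei, the lists and the marker rule for other nuclei (at least 4 UMIs over at least 2 genes of 1 cell type) were chosen with earlier results of these data known. Doublets were scored with Scrublet in scanpy 1.11.5 (expected rate 5%, seed 1) and kept; the 4% highest scores were left out as an alternative. Other alternatives were TMM (edgeR 4.0.16) and DESeq2-type size factors, other count minimums, a mean over nuclei, a 10% mitochondrial limit and other limits of the selection. Analyses used Python 3.11.15, numpy 2.4.6 and scipy 1.17.1. Values of some genes are not reported here.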

Additional observations from a re-analysis of the deposited data

How the results depend on the processing

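Of 456 summary values under the alternatives, 412 stayed within their margin, 43 moved beyond it and 1 reversed. Of 338 list medians among them, 13 changed sign, the Wnt one given below and 12 of the ductular reaction, EGF and FGF, neuron and Schwann and handling lists, whose reported medians lay between -0.04 and 0.28 and whose changed values lay between -2.00 and 0.03. A margin could be wide: the neuron and Schwann median counted as within it at -2.00 without the 4% highest doublet scores, in place of 0.15. Of 1468 values for named genes, 111 moved beyond their margin. Of the 1468, 8 changed sign, those of Pdgfd and Magi1 with TMM (0.41 and 0.13) and DESeq2 factors (0.41 and 0.13), Pdgfd with only nuclei that had Kcnma1 (0.50), Sorbs2 with a mean over nuclei (-0.09) and Bicc1 and Sorbs2 with at most 10% mitochondrially encoded UMIs (-0.04 and -0.03), all between genotypes. No paired analysis was possible because each genotype had 1 library. The cause of the changes was not tested.

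With TMM factors the hepatocyte median log2 ratio was -0.62, 186 genes were lower in wild-type bile duct nuclei, and between genotypes 70 were higher and 12 lower; with DESeq2 size factors these counts were 180, 70 and 12. With a mean over nuclei, which has no interval and so counts every 2-fold ratio, 1870 genes were higher and 3760 lower in Cox10-/- bile duct nuclei, 2011 and 7373 in wild-type ones, 506 and 523 against the left-out nuclei, and 1004 and 365 between genotypes, with medians of -0.65 for hepatocyte, -3.56 for lymphocyte and 0.208 for mitochondrially encoded genes. With at least 100 UMIs, 405 genes were higher in Cox10-/- and 168 in wild-type bile duct nuclei, 57 were higher and 68 lower against the left-out nuclei, 10 were lower between genotypes, and the Wnt median turned to 0.15, since members with few counts were no longer tested. With no minimum, 523 genes were higher in wild-type bile duct nuclei and 78 lower between genotypes.

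With at most 10% mitochondrially encoded UMIs, 367 genes were higher and 301 lower in Cox10-/- bile duct nuclei, 144 were higher in wild-type ones, 5 were higher and 11 lower between genotypes, the medians were -0.28 for hepatocyte, -3.63 for endothelial, -5.72 for smooth muscle and 0.163 for mitochondrially encoded genes, and the share of bile duct nuclei in the Cox10-/- library was 1.08%. Without the 4% highest doublet scores the endothelial median was -4.38. With only nuclei that had Kcnma1, chosen after seeing the data, the medians were -0.66 for hepatocyte, -2.30 for endothelial and 0.51 for mitochondrially encoded genes, 66 genes were lower between genotypes and the share was 1.18%. Requiring at least 3 of the selecting genes gave a share of 1.22%, and no limit on Nrg1, Tenm4 and Vmn2r3 gave 2.17%. In the wild-type sum 3 counts stand for 107 CPM, against 9.57 CPM in the Cox10-/- sum.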

Other observations

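The table also counted Dendra2, a photoconvertible fluorescent protein that is not a mouse gene and that the labels do not mention. It had 287 CPM in Cox10-/- bile duct nuclei (90 UMIs in 54 of 82), against 363 CPM in the other Cox10-/- nuclei, a ratio of 0.790 (95% interval 0.634 to 0.973). In wild-type bile duct nuclei it had 179 CPM (5 UMIs in 4 of 8), against 214 CPM in the other wild-type nuclei.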
